A study of Mus musculus with 6 samples.

Results

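The hypoxia and angiogenic genes described here are 10 listed genes, Pgf, Vegfa, Adm, Ddit4, Bnip3, Ndrg1, Egln3, Slc2a1, Hk2 and Slc16a3, out of 34187 gene features in the matrices. They were followed in macrophage-like, dendritic-like, neutrophil-like and tumor-like cells of treated tumors. The list was drawn up with measured values in view: Pgf, Ddit4 and Slc16a3 were put on it for being higher with mono-IL10 than with IL10/2-Trikine. That contrast is therefore described below without a test in these classes. It was tested only in T and NK cells, which had no part in the choice. The tests of these 3 genes against PBS use the same treated mice and are not independent of the choice. Mice carried subcutaneous tumors of 6694c2vTRP1, 1 pancreatic ductal adenocarcinoma line from the KPC model. They were given intraperitoneal PBS, mono-IL10 (26 µg per mouse) or IL10/2-Trikine (30.6 µg per mouse), 2 injections starting on day 8, and the tumors were collected on day 14. mono-IL10 is a monomeric human IL-10, which signals mainly through STAT3, and IL10/2-Trikine joins it to an arm that recruits IL-2Rβ and adds STAT5. The study's methods give ages of mice by institution and for a separate therapy experiment, but none in the account of this experiment, so the age of these mice is not settled here. Cells of each group were isolated with CD45+ beads, marked with 5 hashtags and pooled into 1 library, so treatment and library cannot be told apart. The methods give 5 mice for each treated group and no number for PBS, and the labels do not tie hashtags to animals. Each of the 5 hashtags of a library was taken as 1 mouse, in PBS as well, and the mouse so defined is the replicate throughout.

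Cells that lack oxygen stop hydroxylating the HIF transcription factors, which then accumulate, pair with ARNT and bind a short core motif near their target genes. The best known targets make new vessels (Vegfa), bring in and phosphorylate glucose (Slc2a1, the GLUT1 transporter, and Hk2, hexokinase 2) and carry lactate out (Slc16a3, the MCT4 transporter). Egln3, a prolyl hydroxylase that marks HIF for removal, closes a feedback loop. Several of the genes answer to other signals too. Ddit4 (REDD1) is induced by glucocorticoids and by energy stress, and Pgf (placental growth factor, a ligand of the VEGF receptor FLT1) is made by tumor-associated macrophages.

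The promoters of the 3 genes named in the choice, and of Egln3 as a classical HIF target outside it, are shown because the core motif of the pathway stands in all 4. Each is the RefSeq window from 250 bases before to 50 bases after a transcription start, in the GRCm38.p6 build, printed 5′ to 3′ on the strand of the gene. Capitals mark the HIF core motif ACGTG or GCGTG on either strand (as CACGT or CACGC on the other). Pgf lies on the minus strand at chr12:85177264-85177563, Ddit4 on the minus strand at chr10:59951721-59952020, Slc16a3 on the plus strand at chr11:120948817-120949116 and Egln3 on the minus strand at chr12:54203825-54204124.
Pgf: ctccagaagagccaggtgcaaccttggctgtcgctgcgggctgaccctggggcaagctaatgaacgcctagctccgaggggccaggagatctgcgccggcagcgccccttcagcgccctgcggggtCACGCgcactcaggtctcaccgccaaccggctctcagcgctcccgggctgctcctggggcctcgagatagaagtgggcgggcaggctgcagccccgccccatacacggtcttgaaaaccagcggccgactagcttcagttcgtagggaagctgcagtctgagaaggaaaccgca
Ddit4: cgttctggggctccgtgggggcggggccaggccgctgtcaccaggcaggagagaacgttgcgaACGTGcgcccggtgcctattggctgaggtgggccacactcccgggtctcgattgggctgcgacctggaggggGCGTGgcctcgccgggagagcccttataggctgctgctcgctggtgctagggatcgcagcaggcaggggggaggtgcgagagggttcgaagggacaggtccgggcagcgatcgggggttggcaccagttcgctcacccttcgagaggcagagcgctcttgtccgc
Slc16a3: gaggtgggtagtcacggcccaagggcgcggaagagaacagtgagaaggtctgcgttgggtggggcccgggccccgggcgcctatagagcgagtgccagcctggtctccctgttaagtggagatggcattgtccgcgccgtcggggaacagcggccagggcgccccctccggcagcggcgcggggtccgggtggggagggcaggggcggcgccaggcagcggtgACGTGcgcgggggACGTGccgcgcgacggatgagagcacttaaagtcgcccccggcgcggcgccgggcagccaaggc
Egln3: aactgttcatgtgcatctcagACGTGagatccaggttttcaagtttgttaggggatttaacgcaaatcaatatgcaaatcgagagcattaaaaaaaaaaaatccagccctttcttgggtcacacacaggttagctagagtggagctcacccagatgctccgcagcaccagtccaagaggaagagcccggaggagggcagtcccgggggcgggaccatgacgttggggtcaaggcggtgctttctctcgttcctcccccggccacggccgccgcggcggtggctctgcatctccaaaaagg
Pgf held 1 match (GCGTG type), Ddit4 1 of each type, Slc16a3 2 of the ACGTG type and Egln3 1 of the ACGTG type. Of the 10 genes, 9 had a window in the table, 11 windows in all, and Ndrg1 had none there. The core was in 9 of the 11 windows, and in 43.8% of all 32851 windows of the same length. The windows without it were a second start of Pgf and the more upstream of the 2 starts of Vegfa. The other Vegfa window, further downstream, held 2 matches. The 5-base core is common, and a match in these letters is a description and not a bound site.

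The 3 libraries held 30528 to 55504 barcodes and 364814102 to 515236552 gene UMIs. After filtering, cells were clustered without the 10 genes and without 4 of the 5 related lists described below. Clusters were named from markers, so each class is called by its likeness. Unnamed cells made up 24.1% to 30.5% of a library and entered no class. Among them was cluster 48, led by Dcstamp, Ear2 and Mgl2, with 1160 cells in PBS, 245 with mono-IL10 and 211 with IL10/2-Trikine. Macrophage or monocyte markers scored highest there, but it was left out because more of its leading genes marked another class. The values of the macrophage-like class below are without it. With the mouse known, there were 7253 macrophage-like cells in the PBS library, 5722 in the mono-IL10 library and 5035 in the IL10/2-Trikine library. In the same order there were 555, 313 and 239 dendritic-like, 188, 407 and 18 neutrophil-like and 5396, 4866 and 10816 tumor-like cells. Although the preparation was labelled CD45+, tumor-like cells made up 35.1% to 55.3% of clustered cells. They expressed the 7 epithelial markers used to name them, at sums given with their results in CPM (UMIs per 1000000 gene UMIs). No mouse was called for 5314 of 10710 tumor-like cells with PBS, 3050 of 7916 with mono-IL10 and 11307 of 22123 with IL10/2-Trikine. Median UMIs per macrophage-like cell with a mouse were 4787 with PBS, 6078.5 with mono-IL10 and 2788 with IL10/2-Trikine, and per tumor-like cell 25632.5, 34957 and 9994. The IL10/2-Trikine library was thus the shallowest per cell in both. Libraries shared 208 to 333 cell barcodes pairwise, out of at least 21981 cells each. Levels below are CPM of the class's gene UMIs in 1 mouse. Fold changes come from edgeR's quasi-likelihood test on these sums, with p-values adjusted over all genes tested in the class. The SE of a log2 fold change is its absolute value divided by the square root of that test's F statistic. Fold changes include edgeR's scaling between mice (TMM) and the CPM do not, so the 2 can differ.

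In macrophage-like cells, Pgf, Ddit4 and Ndrg1 were higher with mono-IL10 than with PBS by factors of 5.39, 3.28 and 2.17 and Slc16a3 and Hk2 by 1.31 and 1.24. All 10 genes passed the filter on low counts, and 5 of them passed the test, all higher, against a background of 11.8% of 11992 genes higher by the same test. The other 5, Vegfa, Adm, Bnip3, Egln3 and Slc2a1, did not pass. Pgf, Ddit4 and Slc16a3, among the 5 that passed, were named in the choice, so that count is not independent of it. With IL10/2-Trikine 2 of the 10 were higher, Pgf and Ndrg1, where 7.40% of genes were. That count depended on the method, since DESeq2 called 5, adding Ddit4 as higher and Slc16a3 and Egln3 as lower. With no filter on low counts 7 passed, adding Ddit4 as higher and Vegfa, Egln3, Slc2a1 and Slc16a3 as lower. The 2 comparisons share the PBS mice.

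Pgf, the VEGF-family ligand, stood at 32.8, 59.2, 35.03, 45.00 and 44.3 CPM in the 5 PBS mice. With mono-IL10 it stood at 228, 238, 237, 209 and 190.3 CPM. With IL10/2-Trikine it stood at 85.98, 135, 87.6, 106 and 89.4 CPM. The 3 groups did not overlap, with PBS lowest, IL10/2-Trikine between and mono-IL10 highest. The log2 fold change over PBS was 2.43 ± 0.15 (SE) with mono-IL10 (edgeR adjusted p = 4.76e-09) and 1.22 ± 0.16 with IL10/2-Trikine (edgeR adjusted p = 6.67e-05), n = 5 mice a group.

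Vegfa, the founding ligand of the family, did not follow Pgf. Its level was 805 to 1073 CPM in PBS, 824 to 1078 with mono-IL10 and 737 to 859 in IL10/2-Trikine, and PBS overlapped both treated groups. The log2 fold change with mono-IL10 was 0.17 ± 0.085, with 2 SE on either side reaching from -0.0022 to 0.34 (edgeR adjusted p = 0.169). With IL10/2-Trikine it was -0.23 ± 0.086 (edgeR adjusted p = 0.0864). In cells with at least 2000 genes that value was -0.54 and passed (edgeR adjusted p = 0.00152), and it also passed with no filter on low counts and without PBS mouse 1 (adjusted p = 0.0470 and 0.0347). Adm, the vasoactive peptide adrenomedullin, was near the floor at 0 to 2.86 CPM over all 15 mice. Its log2 fold change with mono-IL10 was 1.38 ± 0.51 (edgeR adjusted p = 0.0584), and it passed without PBS mouse 4 or mono-IL10 mouse 2 (1.80 and 1.59, adjusted p = 0.0242 and 0.0286).

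Ddit4, the mTORC1 inhibitor, stood at 35.01, 36.3, 50.5, 52.6 and 71.6 CPM in PBS. It stood at 137, 186, 150.3, 157 and 116 CPM with mono-IL10 and at 59.9, 80.7, 83.8, 55.98 and 67.1 CPM with IL10/2-Trikine. Every mono-IL10 mouse lay above every mouse of the other groups, while the IL10/2-Trikine and PBS ranges overlapped. On the log2 scale the change over PBS was 1.71 ± 0.16 with mono-IL10 (edgeR adjusted p = 6.06e-07). It was 0.50 ± 0.18 with IL10/2-Trikine, which did not pass (edgeR adjusted p = 0.0669). That change passed with DESeq2 (adjusted p = 0.0437), with no filter on low counts (edgeR adjusted p = 0.0407) and without PBS mouse 5 (edgeR adjusted p = 0.0106).

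Ndrg1, a stress-responsive gene that HIF, MYC and differentiation signals regulate, was not among the genes named in the choice. The whole list was still drawn up with measured values in view, so the tests of Ndrg1 are not shown to be independent either. Ndrg1 stood at 86.2, 82.7, 107, 111 and 116 CPM in PBS. It stood at 229, 212, 201, 179.8 and 194 CPM with mono-IL10 and at 129, 152, 131, 98.7 and 168 CPM with IL10/2-Trikine. The mono-IL10 mice were all above the rest, and 4 of the 5 IL10/2-Trikine mice were above every PBS mouse. The log2 fold change was 1.12 ± 0.11 with mono-IL10 (edgeR adjusted p = 1.46e-06) and 0.45 ± 0.12 with IL10/2-Trikine (edgeR adjusted p = 0.0152). The IL10/2-Trikine call was lost without mouse 2 or mouse 5 of that group (adjusted p = 0.0515 and 0.0529) and in cells with at least 2000 genes (adjusted p = 0.213). Bnip3, a mitochondrial protein of hypoxic autophagy, overlapped in all groups at 83.5 to 165 CPM, and its log2 fold change with mono-IL10 was 0.39 ± 0.16 (edgeR adjusted p = 0.0876).

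The metabolic genes moved little over PBS. Slc16a3, the lactate exporter, stood at 123, 108, 201, 142 and 139 CPM in PBS. It stood at 184, 163, 164, 158 and 203 CPM with mono-IL10 and at 99.3, 123, 109, 102 and 118 CPM with IL10/2-Trikine. PBS overlapped both treated groups, and PBS mouse 3 lay above 4 of the 5 mono-IL10 mice. The log2 fold change with mono-IL10 was 0.39 ± 0.12 (edgeR adjusted p = 0.0238). The call was lost without any 1 of PBS mice 1, 2 and 5 or mono-IL10 mice 1 and 5 (adjusted p = 0.0506 to 0.0735). With IL10/2-Trikine the log2 fold change of Slc16a3 was -0.36 ± 0.13 (edgeR adjusted p = 0.0653), and passed with no filter, with DESeq2, with thinning and without PBS mouse 1 or 2 (adjusted p = 0.0176 to 0.0486). Hk2, which phosphorylates glucose, was 105 to 149 CPM in PBS, 124 to 157 with mono-IL10 and 101 to 114 with IL10/2-Trikine. It rose with mono-IL10 by 0.31 ± 0.083 on the log2 scale (edgeR adjusted p = 0.00938). The log2 ratio of mean CPM, mono-IL10 over PBS and without TMM scaling, was smaller, 0.29 for Slc16a3 and 0.22 for Hk2. With each mouse thinned to 1 total, both calls were lost, at 0.29 for Hk2 and 0.27 for Slc16a3 (edgeR adjusted p = 0.0583 and 0.181). Slc2a1, the glucose importer, had a log2 fold change of 0.26 ± 0.13 with mono-IL10 and -0.40 ± 0.15 with IL10/2-Trikine (edgeR adjusted p = 0.173 and 0.0755). The latter passed with no filter, with thinning and without PBS mouse 1 or 2 (adjusted p = 0.0146 to 0.0378).

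Egln3, the HIF hydroxylase and itself a HIF target, had fitted values below PBS with both agents. The log2 fold changes were -0.32 ± 0.23 with mono-IL10 and -0.82 ± 0.28 with IL10/2-Trikine (edgeR adjusted p = 0.347 and 0.0526). The latter passed with no filter, with DESeq2 and without PBS mouse 1 or 2 (adjusted p = 0.0108 to 0.0458). PBS mouse 3 had the highest level of its group for 4 of the 10 genes, Egln3 at 43.6 CPM, Bnip3 at 165, Slc2a1 at 149 and Slc16a3 at 201. In the same mouse Pgf was 35.03 CPM, Ddit4 50.5 CPM and Ndrg1 107 CPM, inside the range of the other PBS mice. Without PBS mouse 3, Bnip3 and Slc2a1 passed the test for mono-IL10, at log2 fold changes of 0.57 and 0.42 (edgeR adjusted p = 0.00506 and 0.0108).

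**Figure D1:**
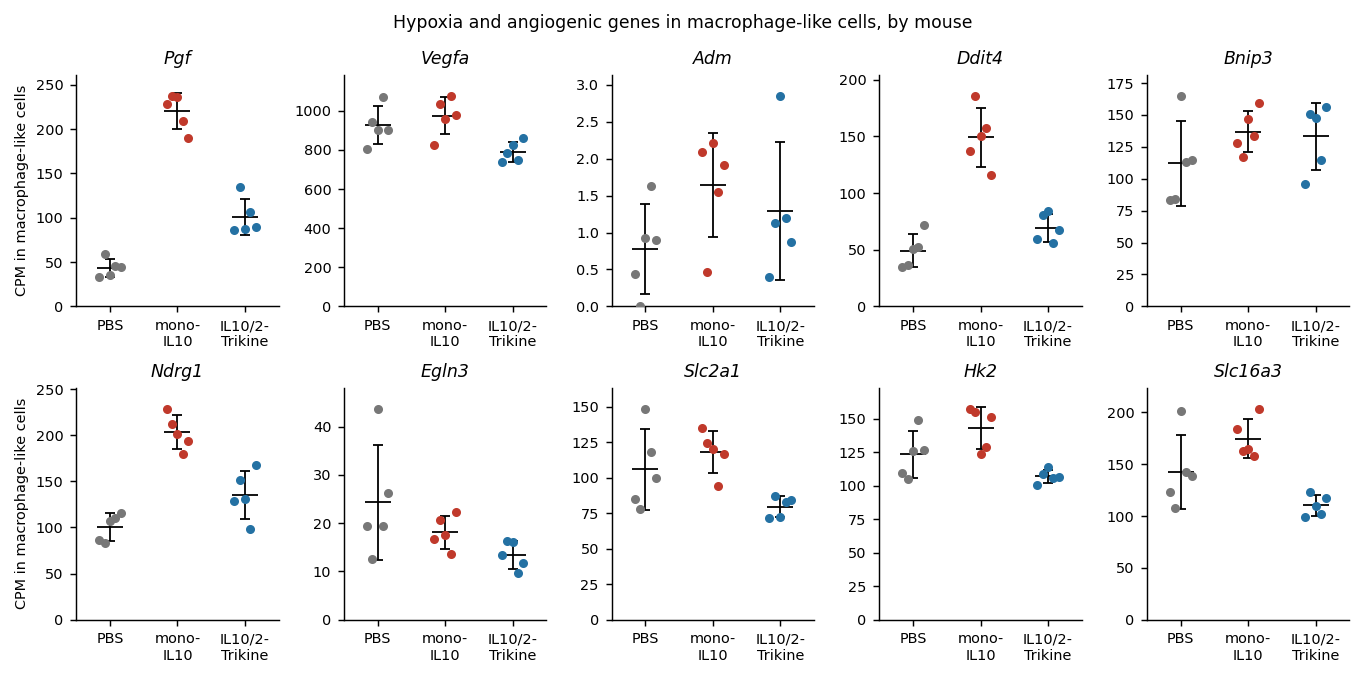
Level of each of the 10 genes in macrophage-like cells (vertical axis, CPM from 0), 1 point per mouse, with bars for the mean ± SD of 5 mice. Pgf, Ddit4 and Ndrg1 in the mono-IL10 mice lie above all other mice, while Vegfa, Bnip3 and Egln3 overlap between PBS and the treated groups.

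Between the treated groups, the contrast that chose genes for the list, every IL10/2-Trikine mouse lay below every mono-IL10 mouse for 6 of the 10 genes in macrophage-like cells: Pgf, Ddit4, Ndrg1, Slc16a3, Slc2a1 and Hk2. That pattern was found in 2.69% of the 11992 genes, and since the contrast chose 3 of the genes the count is given as a description. The fitted log2 differences, IL10/2-Trikine minus mono-IL10, were -1.21 ± 0.15 for Pgf, -1.21 ± 0.17 for Ddit4 and -0.75 ± 0.13 for Slc16a3. For the genes not named in the choice they were -0.66 ± 0.12 for Ndrg1, -0.66 ± 0.15 for Slc2a1 and -0.52 ± 0.088 for Hk2. Those of the overlapping genes included Vegfa at -0.39 ± 0.086 and Bnip3 at -0.15 ± 0.17. None of the 10 had a higher fitted level with IL10/2-Trikine in this class.

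The macrophage-like class was 11 clusters whose shares differed by library. Cluster 47 (led by Cx3cr1 and Hpgds) held 22.98% of the class in PBS, and cluster 16 (led by Folr2 and Fcrls) 25.5% in mono-IL10. Clusters 49 (led by Pf4 and F13a1) and 21 (led by Fcrls and Ccl12) held 26.2% and 19.5% in IL10/2-Trikine. Pgf was unevenly spread among them. In PBS its mean was lowest in cluster 0, led by Cbr2, Cd163 and Fcna, at 5.70 ± 4.65 CPM. It was highest in cluster 6, led by interferon-induced genes such as Rsad2, at 85.1 ± 109 CPM, where the mice varied widely.

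With mono-IL10 the mean level of Pgf was higher than with PBS in all 11 clusters, and in 6 of them the mice did not overlap. In cluster 40, led by antigen-presentation genes such as H2-Eb1 along with Acss1 and Fcgr4, Pgf was 73.4 ± 24.2 CPM in PBS, 382 ± 42.8 with mono-IL10 and 209.5 ± 9.46 in IL10/2-Trikine (SD, n = 5 mice each). In cluster 17, led by Ccl24 and Arg1, it was 80.5 ± 24.8, 326 ± 59.5 and 218 ± 63.7 CPM. Ddit4 was also higher with mono-IL10 than with PBS in all 11 clusters, and in 8 of them without overlap, from a cluster mean of 67.3 to 187 CPM against 22.0 to 67.1 CPM. Given 1 set of cluster weights in every mouse, the log2 ratio of mean CPM for Pgf went from 2.35 to 1.97 with mono-IL10 over PBS and from -1.13 to -0.66 with IL10/2-Trikine over mono-IL10. For Ddit4 the same 2 ratios went from 1.60 to 1.44 and from -1.10 to -0.94, and for Ndrg1 over PBS from 1.02 to 0.96. Vegfa, which did not pass, changed sign with mono-IL10 over PBS, from 0.075 to -0.067, and its mono-IL10 mean was above the PBS mean in 3 of the 11 clusters.

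**Figure D2:**
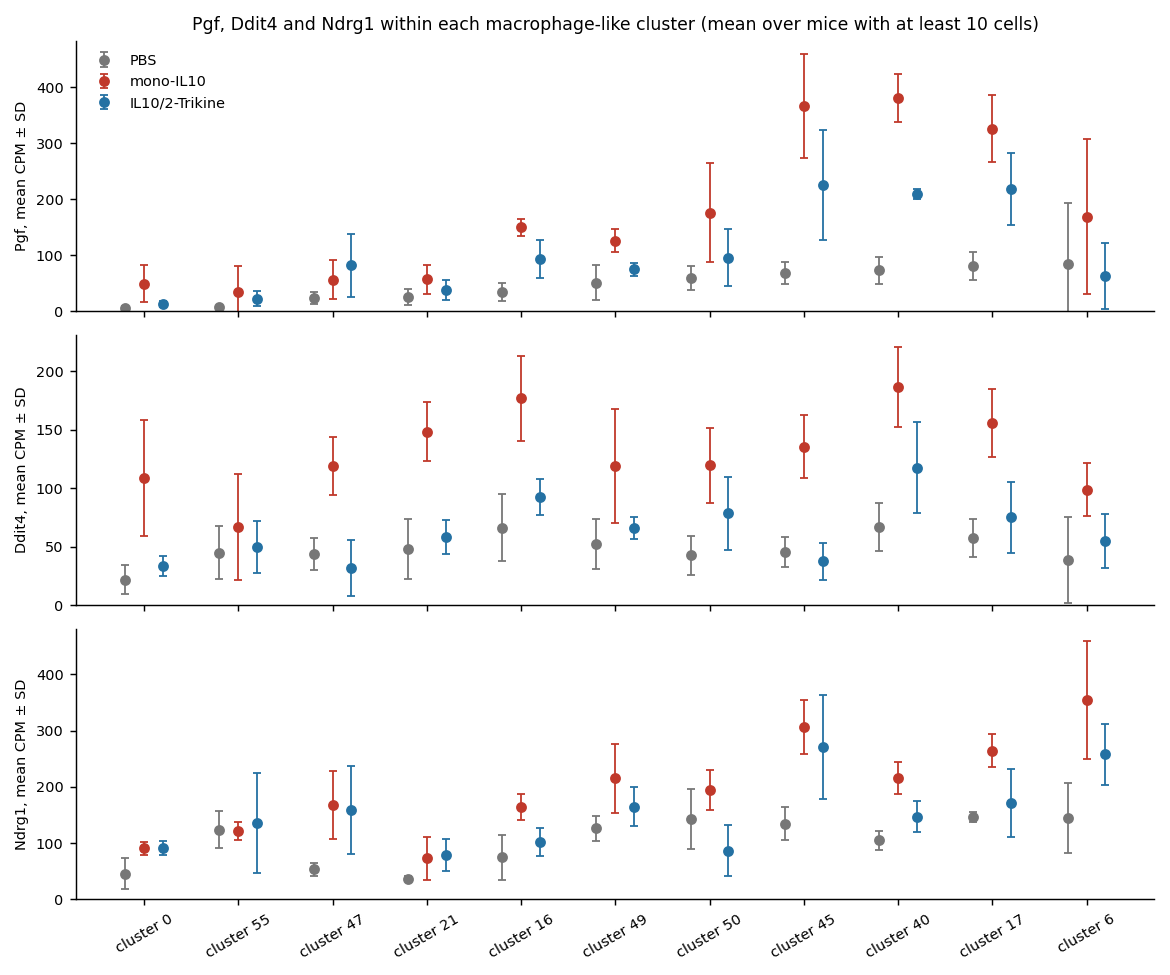
Mean CPM ± SD of Pgf, Ddit4 and Ndrg1 in each of the 11 macrophage-like clusters (horizontal axis, ordered by Pgf in PBS), over the mice of each group with at least 10 cells of the cluster. The mono-IL10 mean lies above the PBS mean in all 11 clusters for Pgf and Ddit4.

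More macrophage-like cells held a Pgf UMI with mono-IL10. With each cell thinned to 1500 UMIs, the expected share of macrophage-like cells with at least 1 Pgf UMI was 4.80% ± 0.492 in PBS, 17.4% ± 1.73 with mono-IL10 and 9.92% ± 1.86 in IL10/2-Trikine (mean ± SD over 5 mice). Unthinned it was 10.7%, 33.8% and 15.5%. For Ddit4 the thinned shares were 6.73% ± 1.99, 18.2% ± 2.80 and 9.51% ± 1.43. Thinning left out 3, 0 and 6 shallower cells. T and NK cells, which gave 0 Pgf UMIs in PBS and IL10/2-Trikine, served as the measure of free RNA for Pgf. Their thinned share for Pgf was 0.432% ± 0.514 with mono-IL10, at a median of 4155 UMIs per cell against 6078.5 in the macrophage-like cells of that library. For Ddit4 they give no background, since their own thinned shares were 11.8% ± 4.18, 12.3% ± 2.96 and 13.04% ± 3.51, and the shares of macrophage-like cells are given without one. Macrophage-like cells without a mouse call entered no fit. They had 39.3 CPM (95% interval 29.1 to 52.00) of Pgf in PBS, 175 CPM (95% interval 144 to 212) with mono-IL10 and 60.1 CPM (95% interval 47.9 to 74.5) in IL10/2-Trikine, with exact Poisson intervals for counting error only.

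Other cell types' markers had UMIs in the macrophage-like class and were not equal between libraries. The 6 type 2 dendritic cell markers summed to 417 to 514 CPM in PBS, 217 to 295 with mono-IL10 and 279 to 397 with IL10/2-Trikine, with PBS above both treated groups. PBS was also above both for the 5 plasmacytoid dendritic cell markers, at 258 to 347, 189 to 243 and 209 to 250.4 CPM. The same held for the 9 macrophage or monocyte markers that named the class, at 14110.0 to 16073, 11939 to 13768 and 12270.3 to 13445 CPM. They are called macrophage markers below. The 7 neutrophil markers summed to 274 to 650.4, 224 to 384 and 419 to 631 CPM. The 5 NK cell markers summed to 6.25 to 11.1, 2.10 to 6.07 and 22.9 to 37.1 CPM and the 5 T cell markers to 14.1 to 31.05, 13.1 to 28.2 and 39.97 to 67.4 CPM, both highest with IL10/2-Trikine. All 7 epithelial tumor markers had UMIs there, and their sum was 59.8 to 80.2 CPM in PBS, 49.1 to 88.8 with mono-IL10 and 80.2 to 157 in IL10/2-Trikine. The 6 fibroblast markers summed to 15.2 to 24.9, 6.95 to 11.5 and 21.6 to 62.4 CPM, and the 6 endothelial markers to 67.9 to 106, 106 to 146 and 54.99 to 144 CPM. The part of these markers other than 6 of the 7 tumor markers was not tested. In cells with no UMI of these 6, all of the 7 but Cdh1, 5 of the 10 genes passed with mono-IL10. All 5 were higher, where 11.6% of the genes tested in that fit were. Such cells are called cells without tumor marker UMIs below.

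Further genes of the pathway were read beside the 10. Of 26 further HIF targets, 25 were tested in macrophage-like cells, and with mono-IL10 3 were higher and 1 lower, with a median log2 fold change of 0.13 beside -0.000862 over all genes. In that contrast 11.8% of all genes were called higher and 11.6% lower, so that 3 of 25 higher is close to the background. With IL10/2-Trikine 2 of the 25 were higher and 0 lower, where 7.40% and 7.09% of genes were. With mono-IL10 the glycolytic enzyme gene Gapdh rose by 0.41 ± 0.079, adjusted p = 0.00107 and Mxi1, a MYC antagonist, by 0.58 ± 0.063, adjusted p = 2.72e-06 (edgeR, log2 ± SE). Pfkfb3, which drives glycolysis, rose with the same agent by 0.58 ± 0.08, adjusted p = 4.32e-05 (edgeR). Lox, a collagen cross-linker, fell with mono-IL10, with a log2 fold change of -2.62 ± 0.60, adjusted p = 0.00380 (edgeR), from 0.811 to 3.98 CPM in PBS to 0.156 to 0.583 CPM. Lox is a fibroblast gene here, at 885 ± 110.2 CPM in the fibroblast-like cells of PBS mice. Its fall moved with that of the fibroblast markers given above, whose part in it was not tested. The common glycolytic targets Ldha, Pgk1, Eno1 and Aldoa did not pass in either direction with mono-IL10.

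The oxygen-sensing machinery comprises the HIF subunits and the enzymes that mark them. All 8 genes listed were tested, and 5 were higher with mono-IL10 and none lower, at a median log2 fold change of 0.25, where 11.8% of all genes were higher. They were Epas1, which codes for HIF-2α, at 0.75 ± 0.20, adjusted p = 0.00896, and the main HIF hydroxylase Egln1 at 0.40 ± 0.10, adjusted p = 0.00562 (edgeR, log2 ± SE). The others were Hif1a at 0.39 ± 0.11, adjusted p = 0.0125, the HIF competitor Cited2 at 0.27 ± 0.088, adjusted p = 0.0306 and the HIF partner Arnt at 0.23 ± 0.072, adjusted p = 0.0256 (edgeR). With IL10/2-Trikine 1 of the 8 was higher, where 7.40% of all genes were, again Epas1, at 0.88 ± 0.22, adjusted p = 0.0109 (edgeR).

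Among 15 angiogenic ligands and receptors, 9 were tested in macrophage-like cells, with 3 higher and 1 lower under mono-IL10, where 11.8% and 11.6% of all genes were. The largest changes were in the VEGF receptors Flt1 at -1.33 ± 0.47, adjusted p = 0.0488 and Kdr at 1.12 ± 0.26, adjusted p = 0.00377 (edgeR). The vessel-destabilizing ligand Angpt2 was at 1.005 ± 0.23, adjusted p = 0.00407 (edgeR). These 3 were near the floor, with Flt1 at 0.721 to 8.45 CPM, Kdr at 1.14 to 1.49 CPM and Angpt2 at 1.53 to 2.11 CPM in PBS. Endothelial-like cells of the PBS mice held 1119 ± 64.6 CPM of Flt1, 452 ± 81.5 of Kdr and 145 ± 34.1 of Angpt2. The part in these results of the endothelial markers, whose sums are given above, was not tested. With IL10/2-Trikine 2 of the 9 were higher and 1 lower, where 7.40% and 7.09% of all genes were. The higher genes were the co-receptors Nrp1 at 0.42 ± 0.11, adjusted p = 0.0198 and Nrp2 at 0.31 ± 0.069, adjusted p = 0.00513 (edgeR). Ramp3, a subunit of adrenomedullin receptors, was lower at -0.89 ± 0.15, adjusted p = 0.000649 (edgeR).

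Ddit4 also answers to the integrated stress response and to glucocorticoids, and of 10 genes that share these inducers 8 were tested. With mono-IL10, 2 of the 8 passed, both higher, where 11.8% of all genes were, the stress gene Sesn2 at 0.42 ± 0.091, adjusted p = 0.00229 and Atf4 at 0.19 ± 0.063, adjusted p = 0.0316 (edgeR). With IL10/2-Trikine 1 of the 8 was higher and 1 lower, where 7.40% and 7.09% of all genes were. The glucocorticoid target Tsc22d3 did not pass with mono-IL10 and did with IL10/2-Trikine, at 0.56 ± 0.11, adjusted p = 0.00187 (edgeR). The stress gene Ddit3 was lower with IL10/2-Trikine at -0.39 ± 0.12, adjusted p = 0.0288 (edgeR). Of 10 genes that dissociation of tissue induces, 2 were higher and 2 lower with mono-IL10, where 11.8% and 11.6% of all genes were, led by Atf3 at -0.59 ± 0.10, adjusted p = 0.000269 and Ier2 at 0.50 ± 0.077, adjusted p = 0.000131 (edgeR). With IL10/2-Trikine 4 were lower, where 7.09% of all genes were, led by the heat shock genes Hspa1a and Hspa1b at -1.03 ± 0.28, adjusted p = 0.0168 and -1.01 ± 0.32, adjusted p = 0.0410 (edgeR). Their part in the Ddit4 result was not tested.

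The genes most like Pgf over the 15 mice, by Pearson's r of log2(CPM + 1) in macrophage-like cells, were Fabp5 (r = 0.96), Rab5c (0.95), Ifitm1 (0.95), Cux1 (0.94) and Htt (0.94). These values span 3 groups and 3 libraries and are a description. Ifitm1 stood at 77.8 ± 32.3 CPM in PBS, 767 ± 77.1 with mono-IL10 and 465 ± 146 in IL10/2-Trikine, the same order as Pgf. Among the listed genes, Ddit4 (r = 0.89) had rank 31 and Ndrg1 (r = 0.87) 47 of 11991 genes, whereas Vegfa (r = 0.19) had rank 2480 and Egln3 (r = -0.33) 7555.

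In dendritic-like cells, too, Pgf, Ddit4 and Ndrg1 were higher with mono-IL10 than with PBS, by factors of 2.38, 2.57 and 1.61. Of the 9 genes tested (Adm did not pass the filter on low counts), these 3 passed, where 1.52% of 6004 genes were called higher. Pgf and Ddit4 were named in the choice, so this count is not independent of it. With IL10/2-Trikine 0 of the 9 passed edgeR's test, where 0.833% of genes did. In that contrast 1 gene, Slc16a3, had an unadjusted p under 0.05, with a log2 fold change of -0.41 ± 0.20 (edgeR adjusted p = 0.393), and DESeq2 called 0.

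Pgf stood at 38.5, 97.7, 81.9, 47.4 and 69.7 CPM in PBS and at 155, 205, 163, 80.5 and 130.1 CPM with mono-IL10. With IL10/2-Trikine it stood at 64.7, 46.6, 21.7, 117 and 94.7 CPM. The PBS and mono-IL10 ranges overlapped by 1 mono-IL10 mouse, number 4, and the IL10/2-Trikine mice covered the PBS range and more. The log2 fold change with mono-IL10 was 1.25 ± 0.25 (edgeR adjusted p = 0.00746), and with IL10/2-Trikine 0.0079 ± 0.34 with 2 SE reaching from -0.68 to 0.69 (edgeR). Ddit4 stood at 30.6, 28.2, 40.9, 30.8 and 34.2 CPM in PBS and at 76.2, 128, 68.6, 56.4 and 46.9 CPM with mono-IL10. These ranges did not overlap, and the log2 fold change was 1.36 ± 0.26 (edgeR adjusted p = 0.00587). Ndrg1, at 265 to 313 CPM in PBS and 364 to 548 CPM with mono-IL10, also separated, with a log2 fold change of 0.69 ± 0.12 (edgeR adjusted p = 0.00379). With each mouse thinned to 1 total, 0 of the 4 genes still tested passed edgeR's test, at log2 fold changes of 1.16 for Pgf and 0.68 for Ndrg1 (edgeR adjusted p = 0.219 and 0.110). Ddit4 did not pass the filter on low counts there and was not tested.

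Within the dendritic-like class, Pgf was highest in cluster 30, led by Plet1 and Ccl17 with the type 2 dendritic cell markers Mgl2 and Cd209a, at 126 ± 44.5 CPM in PBS and 238 ± 88.3 CPM in mono-IL10. Its PBS mean was lower in cluster 31, the Ccr7-, Fscn1- and Ccl22-expressing mature cells, at 42.7 ± 22.8 CPM, against 92.4 ± 46.8 in 4 mono-IL10 mice. It was lower still in cluster 38, with the type 1 markers Clec9a and Xcr1, at 18.9 ± 21.4 CPM in PBS. The 9 macrophage markers had UMIs in the class, summing to 2015 to 3978 CPM in PBS, 1326 to 3592 with mono-IL10 and 347 to 5324 in IL10/2-Trikine, against at least 11939 CPM in the macrophage-like class. The 7 neutrophil markers summed to 444 to 1487, 58.3 to 596 and 529 to 1306 CPM, and the 5 NK cell markers to 101 to 203, 217 to 322 and 112 to 279.8 CPM. The part of these markers in the Pgf result was not tested. Dendritic-like cells without a mouse held 50.3 CPM (95% interval 39.95 to 62.5) of Pgf in PBS, 75.7 CPM (95% interval 54.8 to 102) with mono-IL10 and 114 CPM (95% interval 85.1 to 150.3) in IL10/2-Trikine. The treated groups stood in the other order there. Among the wider lists 1 gene passed in dendritic-like cells with either agent, Gapdh with mono-IL10 at 0.49 ± 0.10, adjusted p = 0.0107 (edgeR). Between the treated groups, 0 of the 9 genes had every IL10/2-Trikine mouse below every mono-IL10 mouse, a pattern of 1.08% of genes. The fitted log2 differences were -1.24 ± 0.32 for Pgf, -1.02 ± 0.33 for Ddit4 and -0.84 ± 0.20 for Slc16a3, and the IL10/2-Trikine mice held 24 to 77 dendritic-like cells each.

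In tumor-like cells Pgf was lower with IL10/2-Trikine than with PBS, by a factor of 0.586, and did not pass with mono-IL10. With mono-IL10, 0 of the 10 genes passed edgeR's test, against 5.50% of 15028 genes, and DESeq2 called 0 as well. The 2 genes with an unadjusted p under 0.05 were Pgf at a log2 fold change of 0.36 ± 0.14 (edgeR adjusted p = 0.140) and Ddit4 at -0.28 ± 0.11 (edgeR adjusted p = 0.137). With IL10/2-Trikine 6 of the 10 passed, all lower, against 11.6% of genes called lower: Pgf, Adm, Ddit4, Ndrg1, Slc2a1 and Hk2. Vegfa, Bnip3, Egln3 and Slc16a3 did not pass. Pgf and Ddit4, among the 6 lower, were named in the choice, so the count of 6 is not independent of it. The median of the 10 was -0.34 on the log2 scale beside 0.0018 over all genes.

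Pgf in tumor-like cells stood at 32.7, 29.00, 36.9, 34.5 and 36.1 CPM in PBS and at 41.2, 45.3, 34.4, 33.4 and 47.9 CPM with mono-IL10. With IL10/2-Trikine it stood at 26.9, 20.4, 15.7, 13.6 and 21.8 CPM, and all 5 mice lay below all mice of both other groups. Its log2 fold change over PBS was -0.77 ± 0.15 (edgeR adjusted p = 0.00137), opposite in sign to that in macrophage-like cells. Slc2a1 stood at 44.4, 48.6, 59.98, 52.7 and 54.2 CPM in PBS and at 28.7, 39.4, 42.99, 34.6 and 38.7 CPM with IL10/2-Trikine, again without overlap. Its log2 fold change was -0.45 ± 0.089 (edgeR adjusted p = 0.00191). Hk2, at 126 to 169.9 CPM in PBS and 95.1 to 119.7 CPM with IL10/2-Trikine, did not overlap either, with a log2 fold change of -0.39 ± 0.077 (edgeR adjusted p = 0.00186). Ddit4, at 55.3 to 80.4 CPM and 39.5 to 57.2 CPM, overlapped by 1 mouse of each group and had a log2 fold change of -0.50 ± 0.11 (edgeR adjusted p = 0.00361).

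Ndrg1 and Adm passed by less. Ndrg1 had a log2 fold change of -0.28 ± 0.085 (edgeR adjusted p = 0.0253). It lost its call without PBS mouse 2 or 5 or IL10/2-Trikine mouse 1 or 4 (adjusted p = 0.0606 to 0.0731). Adm, at 1.16 to 3.16 CPM over the PBS and IL10/2-Trikine mice, had -0.61 ± 0.19 (edgeR adjusted p = 0.0289). It lost its call without PBS mouse 2, 3 or 5 or IL10/2-Trikine mouse 1, 3 or 5 (adjusted p = 0.0565 to 0.0787). Egln3 had a fitted value in the other direction, 0.29 ± 0.11 (edgeR adjusted p = 0.0595), and passed with DESeq2 (adjusted p = 0.0379). It also passed without IL10/2-Trikine mouse 1 or 4 or mono-IL10 mouse 4 (edgeR adjusted p = 0.0375 to 0.0472). Between the treated groups, every IL10/2-Trikine mouse lay below every mono-IL10 mouse for 3 of the 10 genes, Pgf, Slc2a1 and Hk2, a pattern of 6.87% of the 15028 genes. Slc16a3, one of the genes chosen by this contrast, overlapped at 17.7 to 22.2 and 11.3 to 25.8 CPM.

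**Figure D3:**
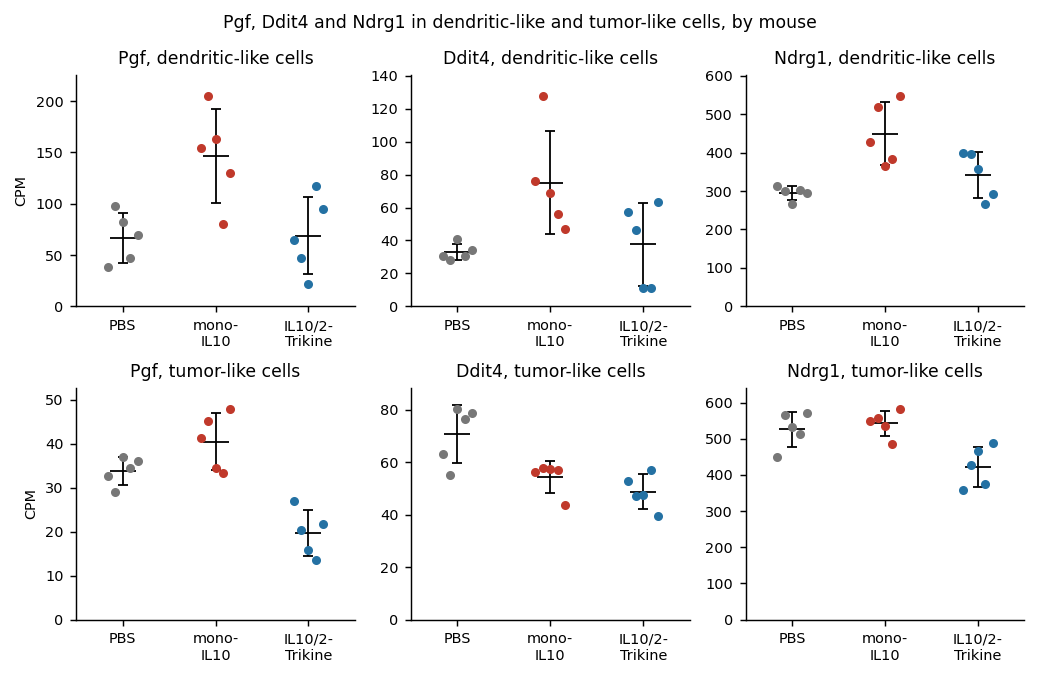
Pgf, Ddit4 and Ndrg1 (vertical axis, CPM from 0) in dendritic-like cells (upper row) and tumor-like cells (lower row), 1 point per mouse with bars for the mean ± SD of 5 mice. In dendritic-like cells the mono-IL10 mean is highest for all 3 genes, and in tumor-like cells the IL10/2-Trikine mice are lowest for Pgf and the PBS and mono-IL10 mice overlap.

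The tumor-like class was 12 clusters, and for Pgf the mean was lower with IL10/2-Trikine than with PBS in 11 of them, although in none were the mice fully apart. The shares of the clusters differed by library. Cluster 8, led by Onecut2 and Ttr, held 3.02% of the tumor-like cells with a mouse call with PBS and 9.99% with IL10/2-Trikine, and cluster 19, led by Rbp2 and Tff2, 4.41% and 10.04%. With 1 set of cluster weights the log2 ratio of mean CPM for Pgf, IL10/2-Trikine over PBS, went from -0.78 to -0.54. Of the other lower genes, Adm went from -0.69 to -0.85, Ddit4 from -0.54 to -0.57 and Ndrg1 from -0.32 to -0.30. Slc2a1 went from -0.49 to -0.48 and Hk2 from -0.43 to -0.35, while Bnip3, which did not pass, changed sign from 0.086 to -0.0021. Tumor-like cells without a mouse held 32.1 CPM (95% interval 31.03 to 33.3) of Pgf in PBS, 34.8 CPM (95% interval 33.5 to 36.2) with mono-IL10 and 25.04 CPM (95% interval 24.03 to 26.1) in IL10/2-Trikine. The 9 macrophage markers in tumor-like cells summed to 100.1 to 173 CPM in PBS, 37.9 to 75.4 with mono-IL10 and 59.5 to 307 in IL10/2-Trikine. The 6 type 1 dendritic cell markers summed to 134 to 146, 126 to 136 and 168 to 191 CPM, highest with IL10/2-Trikine without overlap. The 6 type 2 dendritic cell markers summed to only 5.52 to 9.56, 2.51 to 4.52 and 4.10 to 11.2 CPM. Which of the type 1 markers held the UMIs was not examined. The 7 neutrophil markers summed to 66.6 to 101, 30.8 to 86.1 and 94.2 to 154 CPM. The 7 tumor markers that named the class summed to 4496 to 6029 CPM in PBS, 4957 to 5739 with mono-IL10 and 4028 to 4417 with IL10/2-Trikine, lowest in the last group without overlap. The part of these markers in the 6 lower calls was not tested. UMIs per cell differed between the libraries as given above. In cells with at least 2000 genes 6 of the 10 genes passed, all lower, where 11.1% of the genes tested in that fit were.

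All 26 further HIF targets were tested in tumor-like cells. With IL10/2-Trikine 3 were higher and 3 lower, with a median of -0.0020 beside 0.0018 over all genes. Of all genes 9.90% were called higher and 11.6% lower, so that the count of 3 lower is close to the background. Car9, a carbonic anhydrase and a standard marker of hypoxic tumor cells, rose by 0.65 ± 0.12, adjusted p = 0.00127 (edgeR). The glycolytic regulators Pfkfb4 and Pfkfb3 were lower at -0.53 ± 0.15, adjusted p = 0.0194 and -0.52 ± 0.11, adjusted p = 0.00397 (edgeR, log2 ± SE). With mono-IL10 4 were higher and 0 lower, where 3.38% and 2.12% of all genes were, led by Car9 at 0.45 ± 0.12, adjusted p = 0.0366, Gapdh at 0.34 ± 0.068, adjusted p = 0.00858 and Aldoa at 0.33 ± 0.07, adjusted p = 0.0117 (edgeR). Of the 8 oxygen-sensing genes 0 passed edgeR's test in tumor-like cells with either agent, with 2 at an unadjusted p under 0.05 for mono-IL10 and 0 for IL10/2-Trikine, and DESeq2 called 0. Of 12 angiogenic ligands and receptors tested, 0 passed edgeR's test with mono-IL10 (1 at an unadjusted p under 0.05, and 1 by DESeq2). With IL10/2-Trikine 3 were lower, where 11.6% of all genes were, Nrp2 at -0.44 ± 0.067, adjusted p = 0.000239, Pdgfb at -0.36 ± 0.077, adjusted p = 0.00351 and Vegfb at -0.18 ± 0.05, adjusted p = 0.0176 (edgeR).

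Of the 9 tested genes that share other inducers with Ddit4, 2 were higher and 2 lower in tumor-like cells with IL10/2-Trikine, where 9.90% and 11.6% of all genes were. The glucocorticoid targets Tsc22d3 and Sgk1 rose by 0.68 ± 0.10, adjusted p = 0.000139 and 0.36 ± 0.11, adjusted p = 0.0297 (edgeR). Ddit3 was lower at -0.34 ± 0.065, adjusted p = 0.00128 (edgeR). The part of these genes in the Ddit4 result was not tested. With mono-IL10 1 was lower, where 2.12% of all genes were, Fkbp5 at -0.23 ± 0.058, adjusted p = 0.0299 (edgeR). Of the 10 dissociation genes 3 were lower with mono-IL10, led by Ier2 at -0.40 ± 0.11, adjusted p = 0.0470, and 1 with IL10/2-Trikine, Dnajb1 at -0.76 ± 0.21, adjusted p = 0.0146 (edgeR).

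The difference between the classes was tested in 1 fit over the macrophage-like and tumor-like cells of the same mice, added after the data were seen. For mono-IL10 the effect in macrophage-like cells exceeded that in tumor-like cells for 4 of the 10 genes, where 7.46% of 14941 genes differed in that direction. The log2 differences in effect were 2.11 ± 0.22 for Pgf (edgeR adjusted p = 5.4e-06) and 1.998 ± 0.14 for Ddit4 (adjusted p = 4.86e-08). They were 0.98 ± 0.10 for Ndrg1 (edgeR adjusted p = 4.74e-06) and, for Slc16a3, 0.52 ± 0.12 (adjusted p = 0.00523). Of these 4, all but Ndrg1 were named in the choice for being high with mono-IL10, so the count is not independent of it. For IL10/2-Trikine Pgf differed by 1.98 ± 0.24 (edgeR adjusted p = 8.93e-05) and Ddit4 by 1.02 ± 0.16 (adjusted p = 0.000798). Ndrg1 differed by 0.74 ± 0.11 (edgeR adjusted p = 0.000392), and Egln3 by -1.01 ± 0.28 in the other direction (adjusted p = 0.0428), where 4.66% of genes differed in either direction. For Vegfa the difference was 0.16 ± 0.094 with mono-IL10 (edgeR adjusted p = 0.280).

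**Figure D4:**
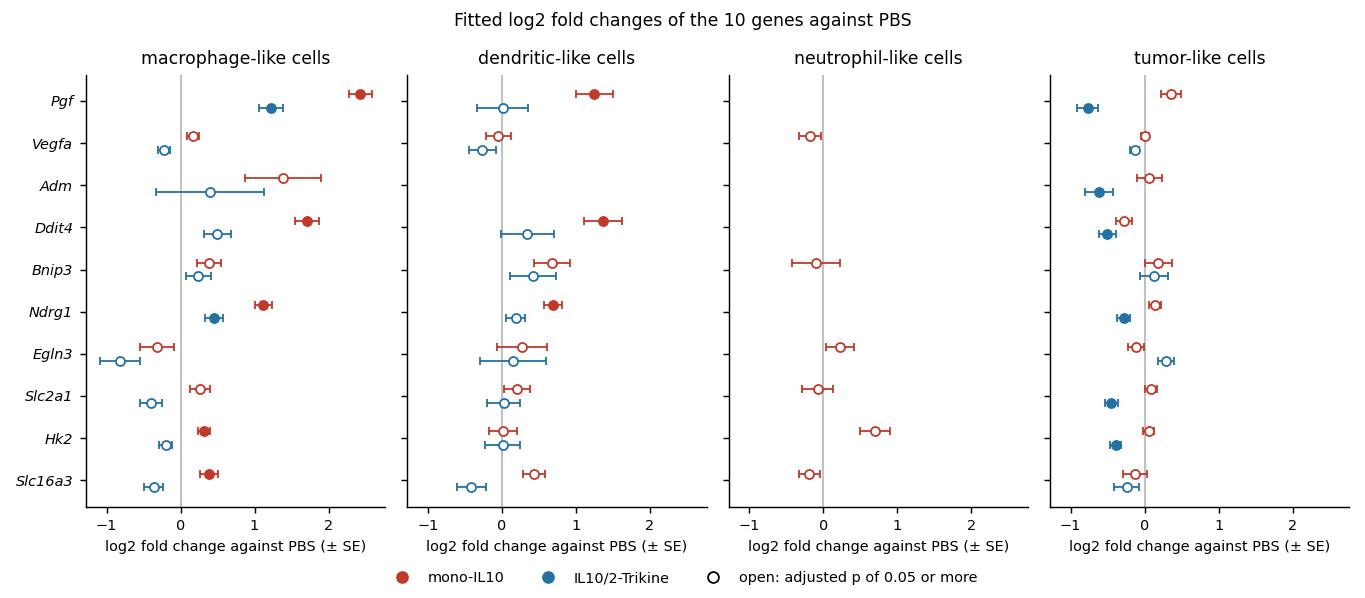
Fitted log2 fold changes over PBS (horizontal axis, same scale in each panel, bars ± SE) of the 10 genes in 4 cell classes, with mono-IL10 in red and IL10/2-Trikine in blue and filled points where the edgeR adjusted p was under 0.05. Points are missing where a gene did not pass the filter or a group had too few cells, and in tumor-like cells the filled points are all IL10/2-Trikine and all below 0.

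In neutrophil-like cells, where Slc16a3, Egln3 and Slc2a1 had their highest levels, 6 of the 10 genes were tested, and 0 passed edgeR's test with mono-IL10, against 5.29% of 2325 genes. Of the 6, 1 had an unadjusted p under 0.05, and DESeq2 called 0. That gene was Hk2, at 87.1, 87.9, 104, 78.9 and 60.9 CPM in PBS and 126, 139.6, 118, 136 and 125 CPM with mono-IL10. The ranges did not overlap, and the log2 fold change was 0.70 ± 0.21 (edgeR adjusted p = 0.0516). It passed under the alternative clustering (adjusted p = 0.0268). Pgf was close to absent, at 6 UMIs over 329 cells with PBS, 8 over 575 with mono-IL10 and 1 over 28 with IL10/2-Trikine. No IL10/2-Trikine mouse had 10 neutrophil-like cells, so that comparison was not made. Clusters 4, 7 and 25, each led by S100a9, held 161, 71 and 261 IL10/2-Trikine cells. They were left unnamed for markers of another lineage and are not in this class. The 28 neutrophil-like cells of the IL10/2-Trikine library summed to 497 CPM (95% interval 346 to 691) of Vegfa beside 549.5 CPM (95% interval 505 to 597) in PBS. For Slc16a3 they summed to 312 CPM (95% interval 196 to 473) beside 501 CPM (95% interval 458 to 546). The 9 macrophage markers summed to 1541 to 3899 CPM in neutrophil-like cells with PBS and 666 to 959 with mono-IL10, and the 7 tumor markers to 17.4 to 66.7 and 68.03 to 206 CPM. Neither pair of ranges overlapped, and their part in the values of this class was not tested. Among the wider lists 1 Ddit4-inducer gene, Sgk1, was lower with mono-IL10 at -0.87 ± 0.23, adjusted p = 0.0326 (edgeR), where 2.58% of genes were. So were the dissociation genes Fosb at -0.71 ± 0.17, adjusted p = 0.0142 and Fos at -0.66 ± 0.14, adjusted p = 0.00618 (edgeR). Of 16 HIF targets 0 passed edgeR's test (4 at an unadjusted p under 0.05, and 0 by DESeq2).

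T and NK cells, annotated by the authors and outside the rule that chose the genes, held enough UMIs to test 3 of the 10: Vegfa, Ddit4 and Ndrg1. With mono-IL10 0 of the 3 passed edgeR's test, where 1.17% of 4604 genes passed. Vegfa alone had an unadjusted p under 0.05, with a log2 fold change of -0.39 ± 0.16 (edgeR adjusted p = 0.261), and DESeq2 called 0. With IL10/2-Trikine Ndrg1 passed, where 4.95% of genes were called higher. The make-up of the class differed too, since the 5 T cell markers summed to 1415 to 2407 CPM in PBS, 2103 to 2500.0 with mono-IL10 and 599 to 1162 with IL10/2-Trikine. The 5 NK cell markers summed to 673 to 1191, 936 to 1256 and 1651 to 2309.7 CPM. For both lists the IL10/2-Trikine mice lay apart from the other groups, and the part of this shift in the results below was not tested. Ndrg1 stood at 40.8, 39.8, 40.9, 67.1 and 51.5 CPM in PBS, 42.2, 54.3, 77.8, 49.02 and 45.3 with mono-IL10 and 101, 80.2, 80.5, 74.9 and 88.9 in IL10/2-Trikine. The last group lay above every PBS mouse and overlapped mono-IL10 by 1 mouse. The log2 fold change was 0.81 ± 0.23 over PBS (edgeR adjusted p = 0.0250) and 0.74 ± 0.20 over mono-IL10 (edgeR adjusted p = 0.0188), where 4.02% of genes were called higher. The call over PBS was lost without any 1 of PBS mice 1, 2 and 3 and IL10/2-Trikine mice 1 and 5 (adjusted p = 0.0548 to 0.0640). It was also lost with no filter on low counts, with thinning and in cells without tumor marker UMIs (adjusted p = 0.0620 to 0.0973). That over mono-IL10 was lost without mono-IL10 mouse 1 or IL10/2-Trikine mouse 1 or 5 (adjusted p = 0.0502 to 0.0689). It too was lost with no filter, with thinning and in cells without tumor marker UMIs (edgeR adjusted p = 0.0816 to 0.109). In these cells the further HIF targets had 4 of 14 higher and 1 lower with IL10/2-Trikine, where 4.50% of genes were called lower. Among them were Ldha at 0.58 ± 0.14, adjusted p = 0.00803, Pgam1 at 0.55 ± 0.16, adjusted p = 0.0319 and Mxi1 at -1.05 ± 0.24, adjusted p = 0.00629 (edgeR). Per1, a clock gene that glucocorticoids induce, was lower at -1.01 ± 0.26, adjusted p = 0.0142 (edgeR). So were the receptor subunit Ramp3 at -1.53 ± 0.42, adjusted p = 0.0199 and the dissociation gene Ier2 at -0.60 ± 0.16, adjusted p = 0.0146 (edgeR).

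Across cell classes in the PBS mice the genes peaked in different classes, given as levels with no test. Vegfa was highest in macrophage-like cells at 926 ± 96.8 CPM, apart from neutrophil-like cells at 591 ± 106 CPM (SD, n = 5 mice). Dendritic-like cells came next at 311 ± 68.03 CPM, again apart, after which neighbours overlapped down to endothelial-like cells at 77.04 ± 45.95 CPM. Slc16a3 and Egln3 were highest in neutrophil-like cells, at 517 ± 97.1 and 232 ± 60.8 CPM, each apart from macrophage-like cells at 143 ± 35.4 and 24.3 ± 11.9 CPM. Slc2a1 was highest in neutrophil-like cells at 144 ± 24.3 CPM, which overlapped macrophage-like cells at 106 ± 28.3. Ndrg1 was highest in tumor-like cells at 526 ± 48.5 CPM and next in dendritic-like cells at 295 ± 18.1, without overlap.

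Pgf had no single source in PBS: dendritic-like cells at 67.03 ± 24.3 CPM, endothelial-like at 45.6 ± 19.3, macrophage-like at 43.3 ± 10.4 and tumor-like at 33.8 ± 3.16 overlapped from one to the next. With mono-IL10 the macrophage-like mean was 220.2 ± 20.4 CPM, the dendritic-like 147 ± 45.9, the endothelial-like 41.6 ± 23.7 and the tumor-like 40.4 ± 6.45. Its receptor gene Flt1 was an endothelial-like gene, at 1119 ± 64.6 CPM in PBS, 1595 ± 330.1 with mono-IL10 and 1226 ± 217 in IL10/2-Trikine, over 11 to 74 cells a mouse. Ddit4 was highest in endothelial-like cells at 121 ± 26.5 CPM, overlapping T and NK cells at 96.3 ± 25.4, and Adm in endothelial-like cells at 27.99 ± 8.71 CPM, overlapping fibroblast-like cells at 9.78 ± 4.95. Hk2 was highest in tumor-like cells at 141 ± 17.8 CPM and Bnip3 in macrophage-like cells at 112 ± 33.2, each overlapping its next class.

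**Figure D5:**
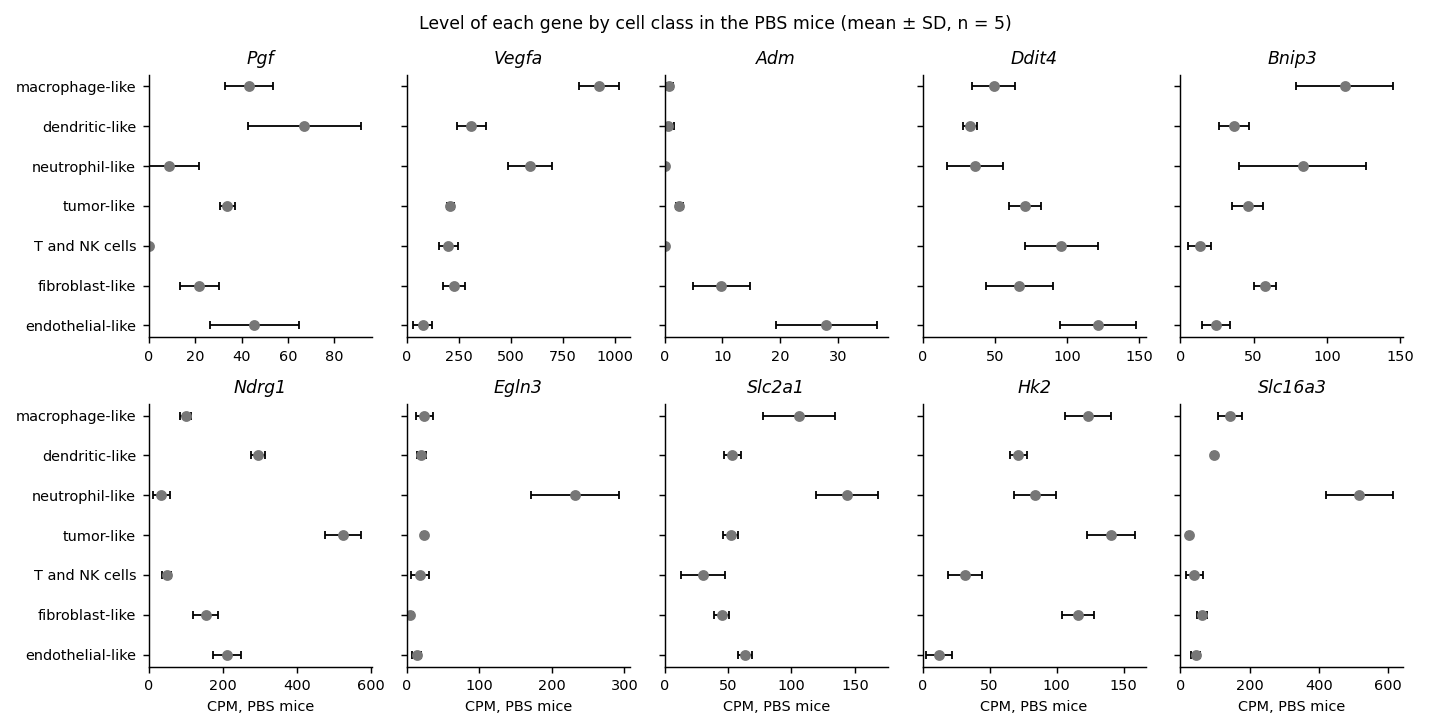
Level of each gene in the PBS mice by cell class (horizontal axis, CPM from 0; points and bars, mean ± SD of 5 mice), with a separate scale for each gene. Vegfa is highest in macrophage-like cells, Slc16a3 and Egln3 in neutrophil-like cells, Ndrg1 in tumor-like cells, and for Pgf the 4 highest classes each overlap the next one down.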

How the data were processed

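The authors aligned the reads of 3 pooled 10x 5′ libraries with Cell Ranger 9.0.1 to GRCm39 and deposited matrices of raw UMI counts for genes and hashtags. The authors also deposited, from Seurat 5.1.0, the percent of mitochondrial reads and the names of 2084 T and NK cells, of which 4 could not be matched to a cell kept here and were left out; 7858 rows of another treatment were not used, and the submitters' processing notes list DESeq2 1.46.0. Barcodes with at least 1000 genes and at most 10% mitochondrial reads were kept, mice were called from hashtags with HTODemux (Seurat 5.3.0, quantile 0.99), and hashtag doublets, 8.64% to 13.3% of a library, were removed, while doublets within 1 mouse were not. The cells were clustered (2000 variable genes without the 10 genes and 4 related lists, 40 components, 60 k-means clusters), and a cluster was named only where its markers led it clearly. UMIs were summed per mouse and class with at least 10 cells and tested with edgeR 4.0.16 (TMM, filterByExpr, quasi-likelihood, Benjamini-Hochberg over all genes tested, threshold 0.05), which was also tested on simulated data: for simulated macrophages, mono-IL10 against PBS, 67.2% of 1.5-fold, 81.5% of 2-fold and 100% of 4-fold changes were recovered over 11829 genes, with 4.09% false among those called. The simulated counts came from edgeR's own model, with its own estimate of the spread and no library effect. They therefore do not measure false calls that come from the confounding of treatment with library. DESeq2 1.42.0 and other settings were alternatives. From the wider lists at most 3 genes were named per comparison, by largest change among those past the threshold, with exceptions such as Gapdh, Arnt, Cited2, Tsc22d3, Ldha, Pgk1, Eno1 and Aldoa chosen after their values were seen. The members and lists were chosen with earlier results of these data known. Mice, taken as 1 per hashtag, were the replicates. Intervals on sums of counts are 95% exact Poisson intervals, and UMIs limit them to counting error.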

Additional observations from a re-analysis of the deposited data

Results flagged for a closer look

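Of 132 sets of 5 mice (1 gene in 1 class and group), 3 held a mouse far from the other 4, where chance gives about 1 in 20. Ddit4 in tumor-like cells was 43.8 CPM in mono-IL10 mouse 5, below 4 mice within 56.2 to 57.8 CPM. Hk2 in T and NK cells was 8.76 CPM in mono-IL10 mouse 2, and Slc16a3 in the T and NK cells of PBS mouse 5 was 83.6 CPM, both in cells where these genes were not tested for low counts.

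The effects in macrophage-like and tumor-like cells of the same mice differed for several of the genes, by a test of the difference itself in 1 edgeR fit. For mono-IL10 over PBS the log2 effect in macrophage-like cells minus that in tumor-like cells was 2.11 for Pgf, 2.00 for Ddit4, 0.98 for Ndrg1 and 0.52 for Slc16a3. For IL10/2-Trikine it was 1.98 for Pgf, 1.02 for Ddit4, 0.74 for Ndrg1 and -1.01 for Egln3. Pgf, Ddit4 and Slc16a3 were named in the choice of the list, so their differences are not independent of it. The fit was added after the data were seen and was run in 1 way only.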

How the results depend on the processing

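No pairing of mice across groups was possible. The mouse numbers come from hashtags within each library and the labels tie no mouse of one group to a mouse of another. The fit across macrophage-like and tumor-like cells was paired by mouse. Of single-gene values under the alternatives, 1524 kept their direction and side of the threshold, 36 lost a call, 28 gained one, 11 values without a test moved beyond 1 SD and 0 called values reversed. With each mouse thinned to 1 total, the genes called fell from 5 to 3 in macrophage-like cells with mono-IL10 (without Hk2 and Slc16a3) and from 3 to 0 in dendritic-like cells with mono-IL10, and were 4 in place of 2 in macrophage-like cells with IL10/2-Trikine; fewer counts enter that fit. The last count was 7 with no filter on low counts and 5 with DESeq2, in both directions, and the cause was not tested. Thinning added Slc2a1 and Slc16a3 as lower. With 40 clusters on 30 components, 1 gene was called in place of 0 in neutrophil-like cells. In T and NK cells the 1 call of IL10/2-Trikine over PBS and the 1 over mono-IL10 were 0 with no filter, 0 when thinned and 0 in cells without tumor marker UMIs. Genes with every IL10/2-Trikine mouse below every mono-IL10 mouse were 0 in dendritic-like cells but 1 with RLE factors, 2 with 40 clusters and 3 in cells with at least 2000 genes, and 3 in tumor-like cells but 5 in cells with at least 2000 genes; in macrophage-like cells they were 6 or 7 under every alternative. Leaving out 1 mouse gave 4 to 7 calls in macrophage-like cells with mono-IL10 (7 without PBS mouse 3) and 1 to 6 with IL10/2-Trikine. The latter were 1 without IL10/2-Trikine mouse 2 or 5, 6 without PBS mouse 1 and 5 without PBS mouse 2, the gains all lower. They were 3 to 3 in dendritic-like cells with mono-IL10, 0 to 0 with IL10/2-Trikine, 0 to 0 in neutrophil-like cells, 0 to 0 and 4 to 7 in tumor-like cells with mono-IL10 and IL10/2-Trikine, and in T and NK cells 0 to 0 with mono-IL10 and 0 to 1 with IL10/2-Trikine over either group. No value could be had for neutrophil-like cells with at least 2000 genes, for T and NK cells with 40 clusters, for IL10/2-Trikine in T and NK cells with at least 2000 genes, or for IL10/2-Trikine in neutrophil-like cells. The fit across macrophage-like and tumor-like cells was run in 1 way only. The depth per cell was lowest with IL10/2-Trikine, where the mice held 24 to 77 dendritic-like cells each, and the changes that could be called at that depth were not simulated.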
